A study of Drosophila melanogaster with 6 samples.

Results

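The Hsp70 and Hsp90 chaperones and their cofactors were followed in astrocytes of the Drosophila melanogaster brain, in adults and in larvae of the third instar (L3). The set was fixed by name and held 10 genes, Hsp83, Hsc70-1, Hsc70-4, Hsc70-5, Hsp60, DnaJ-1, Droj2, Hop, Hsf and stv. Of these, 9 had a row among the 16666 gene symbols of the deposited count table. Hop, also called Stip1, matched none and was not analysed here. A row spelled hop belongs to hopscotch, a Janus kinase, and was not used.

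The study profiled astrocytes after neuronal remodelling, in 4 Adult libraries, and before it, in 2 L3 libraries. All 6 libraries came from flies in which Alrm-Gal4, a driver named for the astrocyte gene alrm, turned on a membrane-bound green reporter (UAS-mCD8::GFP) and a red nuclear reporter (UAS-RedStinger). The flies were reared at 25 °C, and 1000 red cells were sorted into each pool. Dissected brains were digested at 29 °C, a temperature above that of rearing, for 30 min in adults and 15 min in L3, so digestion time and stage cannot be told apart. The labels give neither the sex nor the age in days of the flies, nor whether pools came from separate cultures, so p-values measure only the spread between these pools, which may be technical.

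Hsp70 chaperones bind short hydrophobic stretches of unfolded proteins and release them in a cycle driven by ATP. J-domain proteins bring clients and start ATP hydrolysis, nucleotide exchange factors of the BAG type reset the cycle, and Hop passes clients on to Hsp90, which finishes the folding of kinases, receptors and other regulators. Mitochondria have an Hsp70 and a chaperonin of their own, and the transcription factor Hsf drives the genes of this system when proteins unfold.

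In adult astrocytes the major cytosolic members Hsp83 and Hsc70-4 were both lower than in L3 astrocytes, by 4.13-fold and 3.59-fold. No member was higher in adults by the test. The J-domain genes DnaJ-1 and Droj2, the mitochondrial genes Hsc70-5 and Hsp60, the BAG gene stv and the factor gene Hsf did not pass it, and Hsc70-1 was close to the detection limit.

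Library totals were 745129 to 1287871 counts in adults, with 8542 to 10403 genes detected, and 1923097 to 2641671 counts in L3, with 11687 to 11988 genes detected. Levels below are CPM, the count of a gene scaled to the total of its library, not divided by transcript length, so they compare libraries and not genes. The astrocyte marker alrm had 994 to 1628 CPM in adults and 861.2 and 1346 CPM in L3. The astrocyte list summed to 10930 to 16920 CPM in adults and 3838 to 5698 CPM in L3, and 6 of its 7 genes were higher in adults. Of all tested genes, 9.67% were called higher. The largest row of the list was Gs2, at 4602 to 6382 CPM in adults and 1813 and 2687 CPM in L3. Gs2 shares its counts with Evi5, repo with CG7156 and e with Nelf-A. Other lists also moved with stage. The hemocyte list summed to 908.6 to 1555 CPM in adults and 41.6 to 47.32 CPM in L3, mostly from Hml, with srp at 0 in 5 of the 6 libraries and only 2 of its 5 rows tested. The neuron list summed to 328.1 to 489.8 CPM in adults and 151 to 234 CPM in L3, with 2 of 8 tested genes higher. Photoreceptor genes summed to 593.2 to 884.4 CPM in adults and 808.1 to 1382 CPM in L3, mostly from inaD, whose row shares its counts with the ribosomal protein gene RpL23, and the other tested genes, ninaE and norpA, were higher in adults. Without L3 1 no call on the neuron or photoreceptor list remained. The muscle, fat body and neuroblast lists each summed to at most 55.02 CPM in any adult library and 74.36 CPM in any L3 library. Other glial genes summed to 139.2 to 221.4 CPM in adults and 98.04 to 134.7 CPM in L3. The part of these cells in the differences below was not tested.

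The counts of the members have a feature that comes before any stage difference. Each of the 8 members that passed the filter on low counts had a neighbour within 10 rows of the table with almost the same counts, the differences over the 6 libraries adding up to under 5% of all counts of the pair. In 5 of these pairs the counts were identical in every library. Hsp83 held the same 6 counts as CG14966, Hsc70-5 as Mdr50, Hsp60 as CG11122, Droj2 as CG9799 and Hsf as Dlip3. Hsc70-4 and Amt differed by 0.177%, stv and Abp1 by 0.15% and DnaJ-1 and sif by 1.74%. In all 8 pairs the genes lie on opposite strands with their 3′ ends facing each other, in an Ensembl annotation of BDGP6 used only for the arrangement of neighbours. Whether counting used strand is not given in the sources used here, so a value named below for a member cannot be told apart from that of its neighbour.

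**Figure D1:**
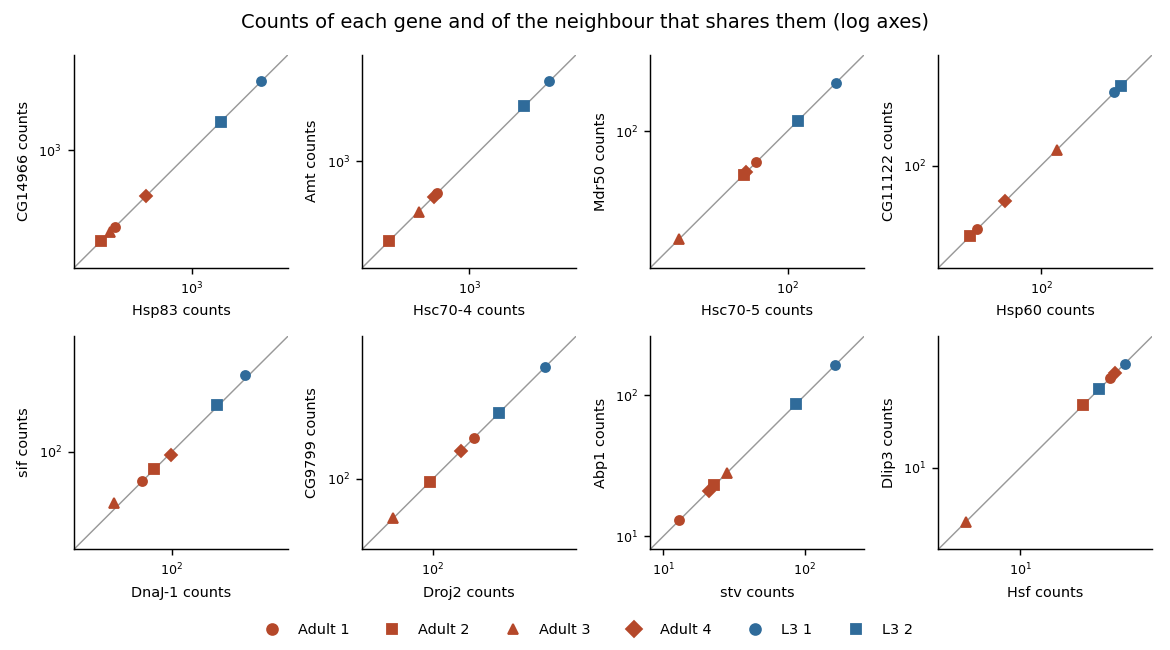
Counts of each member (horizontal, log scale) against counts of the neighbour that shares them (vertical, log scale), 1 panel per pair and 1 point per Adult or L3 library. All points of Hsp83, Hsc70-5, Hsp60, Droj2 and Hsf lie on the line of equal counts, and those of DnaJ-1 lie within 1.74% of it in summed counts.

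The likeness reached further than the nearest neighbour. Within 10 rows, looser likeness, a difference under 30%, joined Hsp83 to CG14967 and CG12034, Hsc70-5 to CG8468, Hsp60 to sev, Rpt3 and Gtp-bp, DnaJ-1 to Usp47, CG10576 and snoRNA:Psi18S-1397, stv to Tgi, and Hsc70-1 to CG17364. More than 10 rows away, 5 members had a row within 5% of them, with CG33791 at 0.486% of Hsp83, Ccp84Ad at 0.888% of Droj2, CG31883 at 2.82% of Hsc70-5, snoRNA:Me28S-A774a at 3.19% of Hsc70-4 and mago at 4.34% of stv. Each was the closest of all rows that far away with at least 30 counts, and whether it shares counts or is alike by coincidence was not tested. For nearby rows within 5% the feature is general, since 5789 of the 9900 genes with at least 30 counts stood in such groups.

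Hsp83 (FBgn0001233, chromosome arm 3L) encodes the cytosolic Hsp90 of the fly. Its level was 214.6, 269.8, 257.5 and 344.8 CPM in Adult 1 to 4, against 1288 and 862.2 CPM in L3 1 and 2. Every adult library was below both L3 libraries. The means were 271.7 ± 54.2 CPM in adults (SD, n = 4) and 1075 ± 301 CPM in L3 (SD, n = 2). By edgeR's quasi-likelihood test with Benjamini-Hochberg adjustment over all tested genes, Hsp83 fell in adults with a log2 fold change of -2.05 (SE 0.32, adjusted p = 7.715e-05). In a bulk pool, fewer cells that express a gene and less of its RNA per cell cannot be told apart. Without L3 1, the highest library, the log2 fold change was -1.52 with an edgeR adjusted p of 0.00981.

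Hsc70-4 (FBgn0266599, arm 3R) encodes the constitutive Hsp70 of the cytosol, which also strips clathrin coats from vesicles. It had 473.4, 328.8, 451.5 and 417 CPM in Adult 1 to 4, against 1550 and 1373 CPM in L3 1 and 2. The stages did not overlap, and both kept close within themselves, at 417.7 ± 63.6 CPM in adults (SD, n = 4) and 1462 ± 125 CPM in L3 (SD, n = 2). Hsc70-4 fell in adults with a log2 fold change of -1.84 (SE 0.30, edgeR adjusted p = 0.0001005). With each library left out in turn the log2 fold change lay between -2.06 and -1.57.

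The ratio of Hsp83 to Hsc70-4 showed no order by stage. The CPM of Hsp83 divided by that of Hsc70-4 was 0.453, 0.82, 0.57 and 0.827 in Adult 1 to 4, and 0.831 and 0.628 in L3 1 and 2. The stages overlapped in this ratio, which averaged 0.668 ± 0.186 in adults (SD, n = 4) and 0.729 ± 0.144 in L3 (SD, n = 2).

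These were the 2 of 8 tested members called lower in adults, where 13.0% of the 9082 tested genes were called lower. None was called higher, where 9.67% of all tested genes were. In that direction 0 members had an unadjusted p under 0.05 with edgeR, DESeq2 or limma-voom, and in the lower direction 4 had with edgeR, the others being Hsp60 and stv. With the earlier quasi-likelihood method of edgeR, which makes fewer calls, Hsp83 (adjusted p = 0.001439) and Hsc70-4 (adjusted p = 0.001177) were again called lower and no member higher, where 6.14% of all tested genes were called lower and 5.74% higher. The log2 fold change was negative for 7 of the 8 tested members with a median of -0.97, and negative for 4904 of the 9082 tested genes with a median of -0.14. With 8 genes, these shares describe the set and carry no test.

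**Figure D2:**
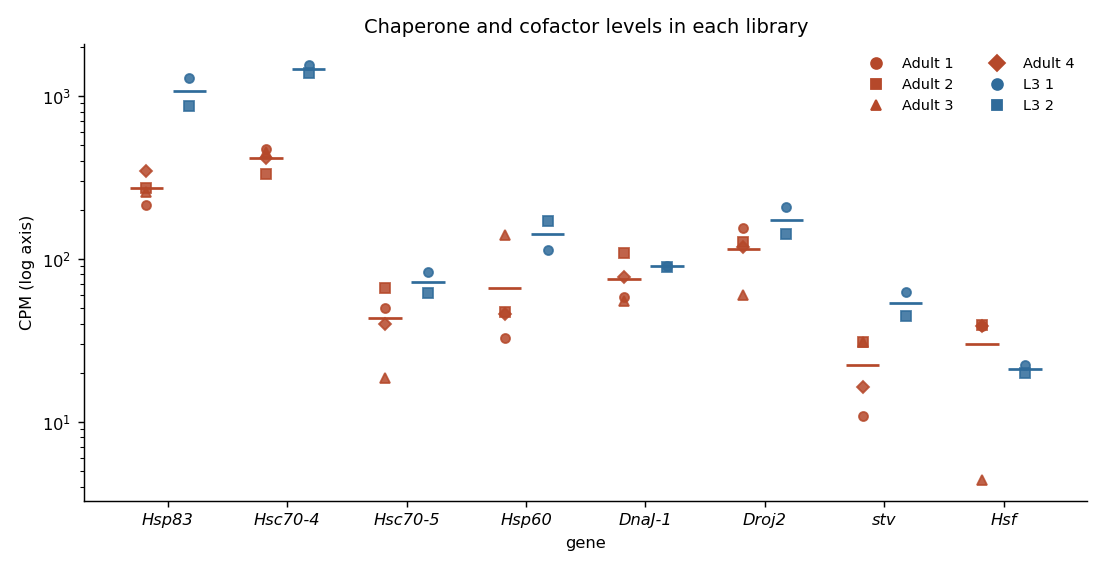
CPM of each tested member (log scale) in the 4 Adult and 2 L3 libraries, 1 point per library and a line at each stage mean. The Adult points of Hsp83 (214.6 to 344.8 CPM) and Hsc70-4 (328.8 to 473.4 CPM) lie below their L3 points (862.2 to 1288 and 1373 to 1550 CPM), whereas the stages overlap for DnaJ-1, Droj2, Hsc70-5, Hsp60 and Hsf.

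DnaJ-1 (FBgn0263106, arm 3L) encodes the heat-inducible Hsp40 of the fly, a J-domain partner of Hsp70. It had 58.4, 108.7, 54.8 and 76.9 CPM in Adult 1 to 4, against 90.5 and 88.9 CPM in L3 1 and 2. The adult libraries lay on both sides of the L3 libraries, which were nearly equal. Its means were 74.7 ± 24.6 CPM in adults (SD, n = 4) and 89.7 ± 1.1 CPM in L3 (SD, n = 2), and the log2 fold change was -0.33 (approximate 95% interval -1.13 to 0.46, edgeR adjusted p = 0.614). With a stricter filter on low counts the log2 fold change changed sign, to 0.04 (adjusted p = 0.953).

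Droj2 (FBgn0038145, arm 3R) encodes a second J-domain protein, of the DnaJA type. It had 155.3, 127.5, 60.3 and 118.8 CPM in Adult 1 to 4, against 206.3 and 140.9 CPM in L3 1 and 2. Adult 3 was the lowest library, and Adult 1 lay between the L3 libraries. The log2 fold change was -0.64 (interval -1.40 to 0.11, edgeR adjusted p = 0.252).

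stv (starvin, FBgn0086708, arm 3L) encodes a BAG-domain protein that acts on Hsp70 and is known in fly muscle for the chaperone-assisted removal of damaged proteins. Its row held 13, 23, 28 and 21 counts in Adult 1 to 4, or 10.9, 30.9, 30.7 and 16.3 CPM, against 164 and 86 counts in L3 1 and 2, or 62.1 and 44.7 CPM. All adult libraries were below both L3 libraries. The log2 fold change of -1.43 (SE 0.55, interval -2.51 to -0.34) did not pass the adjustment (edgeR adjusted p = 0.0688), nor did it in any of the 18 other settings, where the adjusted p ran from 0.0594 to 0.479. Together with Hsp83 and Hsc70-4, stv made 3 of 8 tested members whose stages did not overlap, where 37.7% of all tested genes did not.

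**Figure D3:**
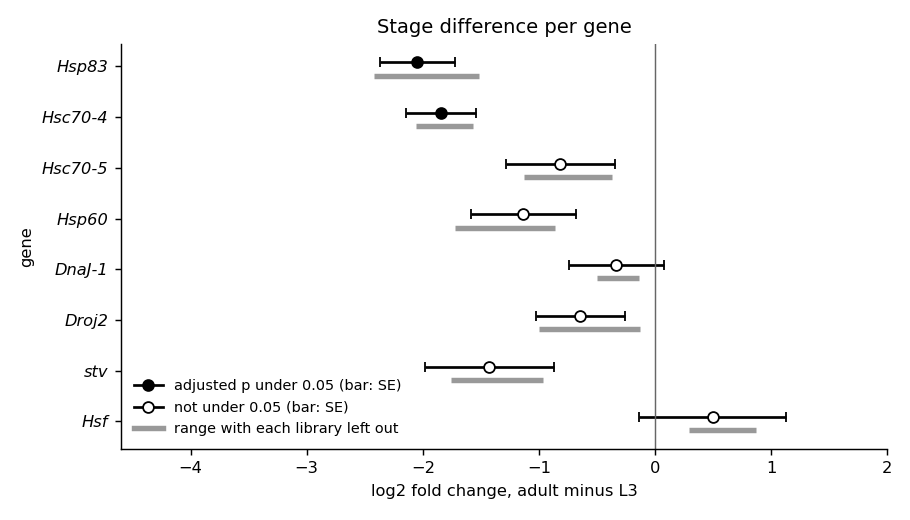
Log2 fold change, adult minus L3, of the 8 tested members, with its SE as a black bar and, in grey, the range with each library left out in turn. Filled points mark Hsp83 (-2.05) and Hsc70-4 (-1.84), the members past an adjusted p of 0.05, and the 6 others are open.

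The J-domain genes were set against Hsc70-4 within each library, the cytosolic Hsp70, and the percentages that follow compare libraries, not genes. DnaJ-1 stood at 12.4%, 33.1%, 12.1% and 18.4% of the Hsc70-4 level in Adult 1 to 4, against 5.84% and 6.48% in L3 1 and 2. Every adult library was above both L3 libraries. The log2 ratio was -2.51 ± 0.67 in adults (SD, n = 4) and -4.01 ± 0.11 in L3 (SD, n = 2), a difference of 1.5 in an exact two-sided permutation test with p = 0.133, the smallest that the 15 possible splits allow, and 0.266 after adjustment over the 4 ratios tested. Droj2 stood at 32.8%, 38.8%, 13.35% and 28.5% of Hsc70-4 in Adult 1 to 4, against 13.31% and 10.3% in L3 1 and 2. Its log2 ratio also did not overlap between stages, but Adult 3 lay next to L3 1. The difference was 1.18, with an exact permutation p of 0.133 and 0.266 after adjustment. This design cannot reach 0.05. Hsc70-4 itself fell 3.59-fold in adults, without overlap of the stages. A gene whose own level held would therefore also stand higher against it in adults. These ratios are thus not separate evidence on DnaJ-1 or Droj2, and the share of all genes with such a ratio was not computed.

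The BAG gene stv kept no such order. It stood at 2.29%, 9.39%, 6.8% and 3.91% of Hsc70-4 in Adult 1 to 4, and at 4.01% and 3.26% in L3 1 and 2. The stages overlapped, and the difference in log2 ratio of 0.48 had an exact permutation p of 0.533, or 0.711 adjusted.

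**Figure D4:**
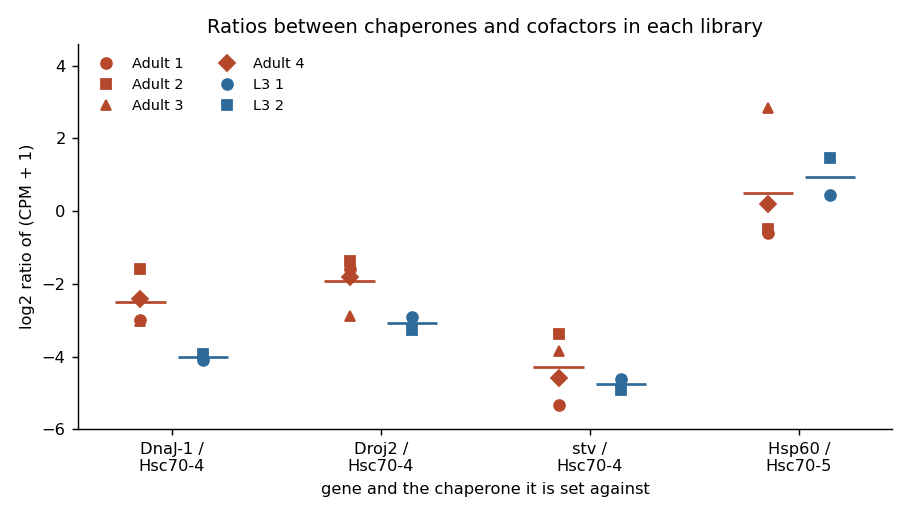
Log2 ratio of (CPM + 1) between each cofactor or chaperone and its partner, 1 point per Adult or L3 library. For DnaJ-1 and Droj2 over Hsc70-4 all Adult points lie above the L3 points, with mean differences of 1.5 and 1.18. Hsc70-4, the denominator, was itself lower in adults. For stv over Hsc70-4 and Hsp60 over Hsc70-5 the stages overlap.

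Hsc70-5 (FBgn0001220, arm 2R) encodes the mitochondrial Hsp70, which pulls imported proteins into the matrix. Its row had 50.1, 65.8, 18.6 and 39.6 CPM in Adult 1 to 4, against 82.9 and 61.4 CPM in L3 1 and 2. Adult 2 exceeded L3 2, so the stages overlapped, and Adult 3 rested on 17 counts. The log2 fold change was -0.82 (interval -1.74 to 0.11, edgeR adjusted p = 0.233).

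Hsp60 (Hsp60A, FBgn0015245, X chromosome) encodes the mitochondrial chaperonin that folds proteins after Hsc70-5 has taken them in. It had 32.6, 47, 139.2 and 45.8 CPM in Adult 1 to 4, against 112.4 and 169.5 CPM in L3 1 and 2. Adult 3 lay between the L3 libraries, and the other adult libraries lay below both. The log2 fold change was -1.13 (SE 0.45, interval -2.02 to -0.25), with an edgeR adjusted p of 0.0773. Without Adult 3 it was -1.72 and passed the test (edgeR adjusted p = 0.005112). With Adult 3 kept, it passed with limma-voom (log2 fold change -1.38, limma-voom adjusted p = 0.0367). Whether Hsp60 is called thus turned on that library and on the method. Hsp60 stood at 65%, 71.4%, 747% and 116% of Hsc70-5 in Adult 1 to 4, and at 136% and 276% in L3 1 and 2, with an exact permutation p of 0.8 for the log2 ratio.

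Hsf (FBgn0001222, arm 2R) encodes the transcription factor that binds heat shock elements. By this test it was the only tested member with a positive log2 fold change. It had 46, 29, 4 and 50 counts in Adult 1 to 4, or 38.4, 38.9, 4.38 and 38.8 CPM, against 59 and 38 counts in L3 1 and 2, or 22.3 and 19.8 CPM. Of the adult libraries, 3 agreed closely above L3 and Adult 3 lay far below both L3 libraries. The exact 95% binomial interval of Adult 3 was 1.19 to 11.2 CPM, which covers counting error only and did not reach the other libraries' values. The log2 fold change was 0.50 (SE 0.63, interval -0.74 to 1.73, edgeR adjusted p = 0.632), and 0.87 without Adult 3 (edgeR adjusted p = 0.311). RNA level does not measure the activity of this factor, which is known to be set by its trimer state and location.

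Hsc70-1 (FBgn0001216, arm 3L), another Hsp70 cognate, was nearly undetected. It had 0, 0, 1 and 0 counts in Adult 1 to 4, against 0 and 9 counts in L3 1 and 2. Only L3 2 exceeded the limit of 3 counts that a count of 0 allows, at 4.68 CPM with an exact binomial interval of 2.14 to 8.88 CPM. That limit was 2.33 to 4.03 CPM in adults and 1.14 and 1.56 CPM in L3. Hsc70-1 did not pass the filter and was not tested.

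Adult 3 recurred among the members, as the lowest adult library for Hsc70-5, DnaJ-1, Droj2 and Hsf, 4 of the 8 tested, and as the highest for Hsp60. It was not the lowest in total counts. The summed CPM of the 9 rows was nevertheless even, at 1034, 1017, 1018 and 1098 in Adult 1 to 4, against 3414 and 2765 in L3 1 and 2. Hsp83 and Hsc70-4 together made 58.8% to 69.6% of this sum in adults and 80.8% and 83.1% in L3. The other 7 rows summed to 352.4 ± 46.9 CPM in adults (SD, n = 4) and 553.2 ± 33.0 CPM in L3 (SD, n = 2).

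The patterns of the members over the 6 libraries were compared by the root mean square difference of centred log2(CPM + 1), where 0 means the same pattern. Among the members, Hsc70-5 and Droj2 were closest at 0.254, Hsp83 and Hsc70-4 stood at 0.329, and Hsp60 and Hsf were farthest apart at 1.78. The nearest rows elsewhere in the table, among genes with a mean of at least 50 CPM, were CG33791 (0.0166) and Mos (0.144) for Hsp83, CG8319 (0.131) and Calr (0.132) for Hsc70-4, and Ccp84Ad (0.0206) and CG42717 (0.172) for Droj2. For the others they were CR43484 (0.118) and Rm62 (0.152) for DnaJ-1, vari (0.124) and cuff (0.132) for stv, Klp64D (0.146) and CG1104 (0.198) for Hsc70-5, PHGPx (0.221) and pre-rRNA:CR45846 (0.241) for Hsp60, and upSET (0.333) and Cpr (0.392) for Hsf. CG33791 and Ccp84Ad are the distant rows within 1% of Hsp83 and Droj2 in summed counts. CG8319 and Calr share counts with each other and with CG9427, and Mos with Taz, ox, Dgkepsilon and Nacalpha. So do CG42717 with Diap1, Rm62 with CR44928, vari with Pomp, cuff with ERp60 and CG1104 with CR45908. Cpr shares counts with CG9497, and pre-rRNA:CR45846 with pre-rRNA:CR45845. These likenesses are descriptions over 6 libraries of unequal depth.

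Other genes of the folding system were read from 4 lists with 64 rows, of which 58 were tested. In adults 18 were lower and 3 higher, with a median log2 fold change of -0.76, where 13.0% of all tested genes were lower and 9.67% higher. Without L3 1 these counts were 10 and 1, where 507 of all genes tested were lower and 402 higher, and with the earlier quasi-likelihood method 12 and 1, where 6.14% of all tested genes were lower and 5.74% higher. In the Hsp70 family beyond the members, 5 of 11 tested genes were lower and none higher by edgeR's quasi-likelihood test, with a median of -1.30, and 0 had an unadjusted p under 0.05 for a higher level with edgeR, DESeq2 or limma-voom. The share of all tested genes called lower was 13.0%. Hsp70Aa and Hsp70Ab hold identical counts, and Hsp70Ba, Hsp70Bb and Hsp70Bbb share theirs, so the 11 are not separate measurements. Without L3 1 none of the 5, namely Hsc70-3, Hsp70Aa, Hsp70Ab, Hsc70Cb and CG7182, kept its call (edgeR adjusted p of 0.0554 to 0.425). Hsc70-3, the Hsp70 of the endoplasmic reticulum, had 209.5 ± 36.9 CPM in adults (SD, n = 4) and 498 ± 123 CPM in L3 (SD, n = 2), with a log2 fold change of -1.30 (SE 0.33, edgeR adjusted p = 0.00616). Without L3 1 its edgeR adjusted p was 0.239. By the 5% limit, its row shares counts with CkIIbeta, that of Hsc70Cb with blue and that of CG7182 with DNApol-alpha50. The heat-inducible copies Hsp70Aa and Hsp70Ab, near-identical in sequence, shared every count with each other. They also shared counts, by the 5% limit, with the nearby row CG3281. Their level was 47.7 ± 9.58 CPM in adults (SD, n = 4) and 177 ± 29.4 CPM in L3 (SD, n = 2). It fell in adults (log2 fold change -1.97, edgeR adjusted p = 0.00102). Without L3 1 that adjusted p was 0.0554. A copy of the other cluster, Hsp70Ba, named after its values were seen, had 54.7 ± 6.59 CPM in adults (SD, n = 4) and 44.9 ± 8.29 CPM in L3 (SD, n = 2), with an edgeR adjusted p of 0.766. Its row shares counts with Hsp70Bb, Hsp70Bbb, CG5961 and CG5608, so the value cannot be given to Hsp70Ba alone. Hsp70Bc of that cluster, which shares counts with Octbeta3R, had 16.95 ± 13.63 CPM in adults and 40.25 ± 14.27 CPM in L3. Its log2 fold change was -1.37 (edgeR adjusted p = 0.128), and its stages overlapped.

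Among Hsp90 relatives and cochaperones 5 of 14 tested genes were lower in adults and none higher by edgeR's quasi-likelihood test, with a median of -1.13, where 13.0% of all tested genes were lower. Without L3 1 the 5 became 3, HIP and HIP-R losing their calls (edgeR adjusted p of 0.215 and 0.114). At an unadjusted p under 0.05, 1 was higher with edgeR and 0 with DESeq2 or limma-voom. CG16817, the p23 cochaperone that closes the Hsp90 clamp, had 96.8, 37.6, 39.5 and 83.9 CPM in Adult 1 to 4, against 290.3 and 360.9 CPM in L3 1 and 2. The stages were well apart, and CG16817 fell in adults with a log2 fold change of -2.29 (SE 0.37, edgeR adjusted p = 0.000113). With the earlier method it was the 1 gene of the list still called. Cdc37, HIP, HIP-R and nudC were the other genes lower in adults. Gp93, the Hsp90 of the endoplasmic reticulum, had 97.4 ± 18.4 CPM in adults (SD, n = 4) and 188 ± 3.01 CPM in L3 (SD, n = 2) and narrowly missed the threshold (log2 fold change -0.97, edgeR adjusted p = 0.0509). By the 5% limit, its row shares counts with CG4951, and that of Cdc37 with CR45818.

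Of the 4 companion lists the chaperonins had the lowest median, -2.41, with 8 of 10 tested genes lower in adults and 1 higher, where 13.0% of all tested genes were lower and 9.67% higher. The calls lower in adults included 7 of the 8 subunit genes of TRiC, the cytosolic ring that folds actin and tubulin, and the Hsp10 gene CG11267, whose product caps the Hsp60 ring. The TRiC gene Cct5 had 18.4, 40.3, 38.4 and 41.9 CPM in Adult 1 to 4, against 247.9 and 262.6 CPM in L3 1 and 2, a log2 fold change of -2.93 (SE 0.40, edgeR adjusted p = 1.548e-05). CG8258, the remaining subunit, had an edgeR adjusted p of 0.23, and its row shares counts with Ggamma1 by the 5% limit. So do the called rows Cct5, with EndoG, and Cctgamma, with CG14906. None of these values can be given to the subunit alone. CG11267 had 61.6 ± 26.4 CPM in adults (SD, n = 4) and 170 ± 9.18 CPM in L3 (SD, n = 2), with a log2 fold change of -1.56 and an edgeR adjusted p of 0.00842, which was 0.133 without L3 1. The row of CG11267 shares counts with mRpL20. Hsp60C, a relative of Hsp60 known for roles in spermatogenesis and the trachea, was higher in adults, at 58.8 ± 9.46 CPM (SD, n = 4) against 16.5 ± 12 CPM in L3 (SD, n = 2). Its log2 fold change was 1.89 (SE 0.57, edgeR adjusted p = 0.0194, or 0.261 without L3 1).

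Of 23 tested J-domain and nucleotide exchange genes, 2 were higher in adults and none lower by edgeR's quasi-likelihood test, with a median of -0.26. That number is close to the 9.67% of all tested genes that were higher. At an unadjusted p under 0.05, 5 were lower with edgeR, 0 with DESeq2 and 3 with limma-voom. DnaJ-60 had 470 ± 37.1 CPM in adults (SD, n = 4) and 25 ± 11.8 CPM in L3 (SD, n = 2), a log2 fold change of 4.26 (edgeR adjusted p = 3.544e-07). Its summed counts were within 0.024% of those of the row Dat, so the value cannot be given to DnaJ-60 alone. The other, jdp, had 184 ± 75.6 CPM in adults (SD, n = 4) and 48.4 ± 49.2 CPM in L3 (SD, n = 2), with an edgeR adjusted p of 0.00819 that was 0.19 without L3 1. By the 5% limit, the row of jdp shares counts with PH4alphaNE2, CG31524 and CG9698.

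**Figure D5:**
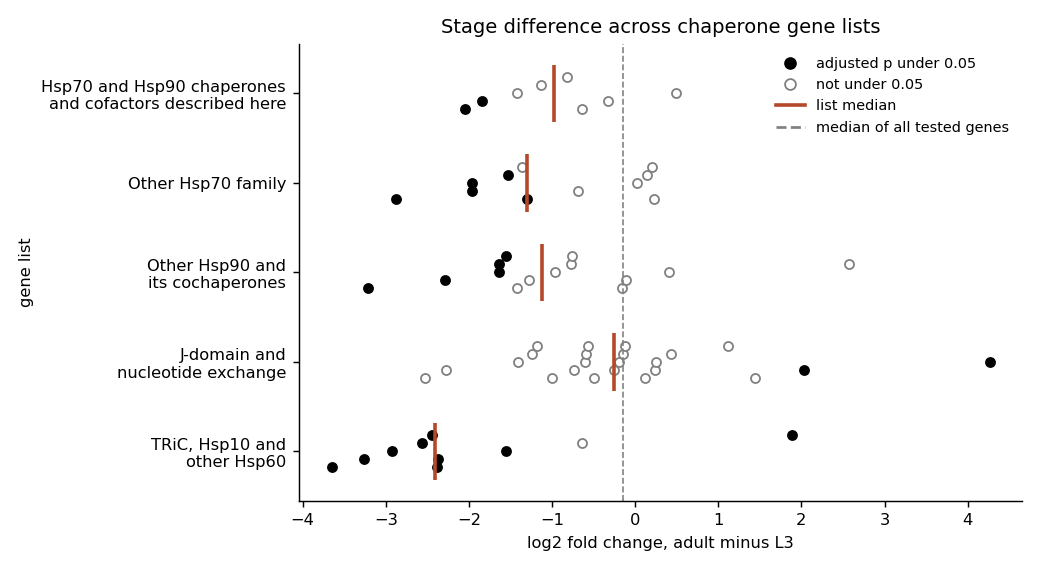
Log2 fold change, adult minus L3, of every tested gene of the members and of the lists beside them, with list medians as coloured bars and the median of all tested genes (-0.14) as a dashed line. The chaperonin list has the lowest median of the 4 companion lists, at -2.41, and the J-domain list the one nearest 0, at -0.26.

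Lists of genes known to respond to heat or handling were read beside the members. Of 7 tested small heat shock protein genes, 4 were lower in adults (Hsp23, Hsp26, Hsp27 and Hsp67Ba) and none higher by edgeR's quasi-likelihood test. Of all tested genes, 13.0% were lower and 9.67% higher. Hsp67Ba lost its call without L3 1 (edgeR adjusted p = 0.054) and with the earlier quasi-likelihood method (adjusted p = 0.142). Among the tested genes, Hsp22 and Hsp67Bb held identical counts, and Hsp26 shares its counts with CG4461. The list summed to 107.7 to 344 CPM in adults and 2146 to 2433 CPM in L3. Of 6 tested immediate early and stress genes, Jra and kay were lower in adults and none was higher, beside the same shares of all tested genes. This list summed to 1711 to 2498 CPM in adults and 2784 to 3560 CPM in L3. Most of that sum came from Xrp1 (1527 to 2277 CPM in adults, 2407 and 3029 CPM in L3), which shares its counts with Mpc1 and did not pass the test (edgeR adjusted p = 0.177). Jra shares its counts with RpLP0-like. Neither the heat shock noncoding RNA Hsromega nor CG5446 passed the test or had an unadjusted p under 0.05. For a higher level in adults, 0 genes of the small heat shock and immediate early lists had an unadjusted p under 0.05 with edgeR, DESeq2 or limma-voom. The part of stress before or during dissociation in the stage differences of Hsp83 and Hsc70-4 was not tested.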

How the data were processed

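Whole-number counts per gene symbol were deposited for 6 libraries of a 3′ MARS-seq derivative, per the labels' protocols, without normalization. The tools named in the submitters' processing notes are HOMER, bcl2fastq and HISAT 0.1.5. No source used here gives their roles, the genome build, the annotation or any collapsing of molecular identifiers, so no coordinates are printed and intervals cover counting error only. There were 0 unused sample columns. Of the symbols, 12618 were current and 3956 older names in a RefSeq table, and 92 had no match.

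All genes were tested with edgeR 4.0.16 in R 4.3.3 on the deposited counts, with TMM scaling, filterByExpr by stage, glmQLFit with its newer dispersion method, stage as the only term and Benjamini-Hochberg adjustment at 0.05. Log2 fold changes are given as adult minus L3. The SE of one is its size over the square root of F, and the 95% interval spans 1.96 SE on each side, so both are approximate. Limma 3.58.1, DESeq2 1.42.0, other scalings and filters, thinning, left-out libraries and a replicate block were alternatives. Using 1 row per group of shared counts together with the earlier method was added after the data were seen. The method was tested on simulated data. The members, the lists and the rule for named genes (members, count-sharing neighbours, the 2 nearest rows, and of each companion list the 2 most abundant genes and the strongest call each way) were chosen with earlier results of these data known. Companions outside the rule were named after their values were seen. Sequences and heat shock motifs were not analysed here.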

Additional observations from a re-analysis of the deposited data

Results flagged for a closer look

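In each adult group of 4 libraries the library farthest from the rest was compared with the range of the group by Dixon's test, in 23 genes, where chance alone marks about 1 in 20. It marked 3. Hsp60 was high in Adult 3, at 139.2 CPM, where the other adult libraries had 32.6 to 47 CPM. Hsf was low in the same library, at 4.38 CPM, where the others had 38.4 to 38.9 CPM. Cct5, a TRiC subunit gene, was low in Adult 1, at 18.4 CPM, where the others had 38.4 to 41.9 CPM. Hsp60 shares all its counts with CG11122, Hsf with Dlip3 and Cct5 nearly all with EndoG, so each value stands for a pair of genes.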

How the results depend on the processing

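Of 283 values recomputed under other settings, 258 were little changed: fold changes and ratios kept their direction, and their side of the threshold where tested, and counts of calls stayed within 1.5 times. Hsp83 and Hsc70-4 were called lower in adults in all 18 settings. Hsp60 was also called with limma-voom (log2 fold change -1.38) and in the 4 numbered libraries without a block (-1.86). DnaJ-1 changed sign under the stricter filter (0.037), as did the log2 ratio of Hsp60 to Hsc70-5 without L3 2 (0.055). The causes were not tested.

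Genes called higher in adults numbered 878, but 521 with the earlier method, 538 with 1 row per group of shared counts and 324 with both. Genes called lower numbered 1181, but 681 with DESeq2 (against 767 higher there), 558 with the earlier method, 768 with the stricter filter, 710 with 1 row per group and 294 with both. Of the companion genes, 1 was higher with the earlier method, 1 higher and 10 lower with both.

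Adult 1 and 2 share numbers with L3 1 and 2, and their deviations from the stage means correlated at -0.009 and 0.0205. With 2 L3 libraries, the deviations of L3 1 mirror those of L3 2. This check therefore cannot tell whether libraries of equal number shared a culture or batch. With the replicate block 338 genes were higher and 240 lower, and of the companions 1 higher and 6 lower. The same 4 libraries without the block gave 782 higher and 869 lower, and of the companions 4 higher and 15 lower. Hsp83 (-2.17, edgeR adjusted p = 0.04695) and Hsc70-4 (-1.90, adjusted p = 0.03749) stayed called.

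With each library left out in turn, 402 to 1020 genes were higher and 507 to 1176 lower, and of the companions 1 to 5 higher and 10 to 19 lower. The members called lower numbered 2 to 3, and the log2 fold change of Hsp60 ran from -1.72 to -0.86 and its log2 ratio to Hsc70-5 from -1.24 to 0.055. The lowest counts of calls came without L3 1. Depth limits Hsc70-1, stv and Hsf, with under 60 counts in every adult library. It also limits Hsc70-5, at 17 to 60 counts in adults, and Hsp60, at 39, 35 and 59 counts in Adult 1, 2 and 4.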
